A study of Mus musculus with 40 samples.

Results

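The genes described are the 10 that encode the measured subunits of the AMPA and NMDA receptors, taken by gene symbol from the count table, where they make up 10 of the 24060 rows. Gria1, Gria2, Gria3 and Gria4 encode the AMPA receptor subunits GluA1 to GluA4. Grin1 encodes the obligatory NMDA receptor subunit GluN1, Grin2a to Grin2d encode the GluN2 subunits and Grin3a encodes GluN3A. The rule uses no measured value, and all 10 genes passed the filter on low counts in every comparison below.

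AMPA and NMDA receptors are cation channels opened by glutamate, and each is built from several subunits around a shared pore. AMPA receptors carry most of the fast excitatory current at central synapses, and the presence of the edited GluA2 subunit makes them nearly impermeable to calcium. NMDA receptors need GluN1 together with GluN2 or GluN3 subunits, pass calcium when glutamate and a co-agonist bind and the membrane is depolarised, and take their kinetics and magnesium block largely from the GluN2 subtype. In the striatum the principal neurons are GABAergic and receive their glutamatergic input from cortex and thalamus, while astrocytes take up the released glutamate.

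RNA of mouse striatum was measured in 40 libraries, in 10 groups of 4 (n = 4 libraries in every mean ± SD below). RiboTag is a ribosomal protein, Rpl22, carrying a haemagglutinin (HA) tag and expressed from an AAV in the dorsal striatum, so that immunoprecipitation (IP) with anti-HA beads recovers RNA bound to the tagged ribosomes, while the input is RNA of the same cleared lysate and holds every striatal cell type. The comparison of IP with input asks which subunit mRNAs are richer on the ribosomes of the tagged cells than in the tissue, and the comparison of genotypes asks what the loss of SAPAP3, a postsynaptic scaffold protein encoded by Dlgap3, does in a mouse model of compulsive behaviour. Each striatum was homogenised on its own.

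The first cohort holds 4 input and 4 IP libraries of C57/BL6NTac mice with the group label Control, injected at 6 weeks of age. The labels do not name its AAV. It is called the astrocyte cohort because the study injected this strain with the GfaABC1D Rpl22-HA virus, whose promoter is used to reach astrocytes, or with the hSyn1 virus, and only the libraries of the second cohort are named for the latter. That second, neuron cohort holds 4 input and 4 IP libraries with the hSyn1 promoter, which drives expression in neurons of all kinds. Its input and IP libraries carry different animal numbers and were matched by the number in their titles. The SAPAP3 cohort holds 4 input and 4 IP libraries each of C57/BL6J mice (WT) and of C57/BL6J-Dlgap3 KO mice, which carry a targeted KO of Dlgap3 and come from a line kept by heterozygous breeding. These mice were injected at 4.5 months, and neither the labels nor the study's text give the cell type of their RiboTag. Bulk striatal RNA, with no IP, was measured in 4 WT and 4 KO libraries, all with the strain label C57/BL6NTac, and 1 animal number occurs in both of these groups.

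The libraries summed to between 23438112 and 84109800 counted reads, and the lowest count of any subunit in any library was 103 reads. Dlgap3 stood at 463, 371, 357.01 and 379 CPM (reads scaled to a common library size) in the 4 WT inputs of the SAPAP3 cohort and at 192, 179, 159 and 159 in the 4 KO inputs, and the groups did not overlap in the inputs, the IP or the bulk libraries. The KO libraries kept 0.437 of the WT level in the inputs, 0.378 in the IP and 0.453 in bulk. These are counts over the whole gene, and the deleted part is not given in the sources used here, so they show a lower level in the libraries labelled KO and do not show that the gene was lost. All 10 astrocyte markers were higher in the IP than in the input of the astrocyte cohort and of both SAPAP3 genotypes, and 10 of 10 neuron markers were higher in the neuron cohort IP, 3 of them past the fold limit. The summed astrocyte markers ran from 3398 to 3596 CPM in the inputs to 35613 to 38919.6 in the IP of the astrocyte cohort. Microglial and endothelial markers were lower in the IP of all 4 settings, and no marker of any list was at 0 in all libraries of a group. Libraries differed in markers of cortical glutamatergic neurons, whose cell bodies are not in the striatum. Their sum was 70.9 to 106 CPM in the astrocyte cohort inputs and 669 to 903 in the neuron cohort inputs. Within the SAPAP3 cohort, WT input replicate 1 stood apart at 76.3, 712, 563 and 638 CPM for WT replicates 1 to 4, against 679 to 839 in the KO inputs, and bulk WT replicates 2 and 3 stood apart at 1043, 249.9, 215 and 824 CPM for replicates 1 to 4. All libraries of the astrocyte cohort expressed Y-linked genes and all of the neuron cohort expressed Xist, so sex and cohort cannot be told apart there. In tissue RNA, fewer cells of a type and less RNA per cell cannot be told apart.

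The genes lie on 9 chromosomes of GRCm38.p6, which is the mm10 assembly to which the reads were aligned, with positions from RefSeq. Grin2c (chr11:115249169-115267297, minus strand) and Gria1 (chr11:57011571-57330244, plus strand) share chromosome 11 and the others stand alone, among them Gria2 (chr3:80681450-80804227, minus), Grin2b (chr6:135713221-136173615, minus), Grin2d (chr7:45831883-45871194, minus) and Grin3a (chr4:49661611-49846023, minus). Counts are per whole gene, over its exons. The exons of Grin1 (chr2:25291177-25319187, minus) overlap those of the antisense gene Grin1os by 1269 bp, and since the strand setting of the counting is not given in the sources used here, the Grin1 counts may hold reads of Grin1os. RefSeq promoters were matched for 5 of the 10 genes. The 250 bases before the start are shown for Grin2c and Grin2d, a pair of subunits that were higher on ribosomes of the astrocyte cohort, with GC boxes (GGGCGG, sought on both strands) in capitals. The Grin2c window is chr11:115267244-115267493 and the Grin2d window is chr7:45866682-45866931, both on the minus strand and printed 5′ to 3′.
Grin2c: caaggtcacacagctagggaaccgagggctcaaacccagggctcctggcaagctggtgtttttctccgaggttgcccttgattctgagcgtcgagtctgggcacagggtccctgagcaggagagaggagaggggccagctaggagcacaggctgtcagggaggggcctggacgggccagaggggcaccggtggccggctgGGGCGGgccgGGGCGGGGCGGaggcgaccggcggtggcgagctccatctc
Grin2d: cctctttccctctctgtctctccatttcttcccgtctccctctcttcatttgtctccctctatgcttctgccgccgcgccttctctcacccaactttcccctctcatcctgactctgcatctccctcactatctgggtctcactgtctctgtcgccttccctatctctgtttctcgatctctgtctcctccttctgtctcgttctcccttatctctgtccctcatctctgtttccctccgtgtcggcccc
The Grin2c window had 68.8% GC and 3 GC boxes, of which the last pair share a base, and the Grin2d window had 54.4% GC and none. The starts used lie inside the annotated spans of both genes. Of 32851 mouse promoters in the same table, 32.7% held a GC box. A TATA box (TATAAA), a SOX site (ACAATGG), an NFI motif (TTGGCA) and a CRE (TGACGTCA), present in 12.4%, 3.02%, 12.3% and 1.55% of all promoters, were in none of the 5 windows matched, which were those of Gria2, Gria4, Grin1, Grin2c and Grin2d. These are matches of letters only.

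**Figure D1:**
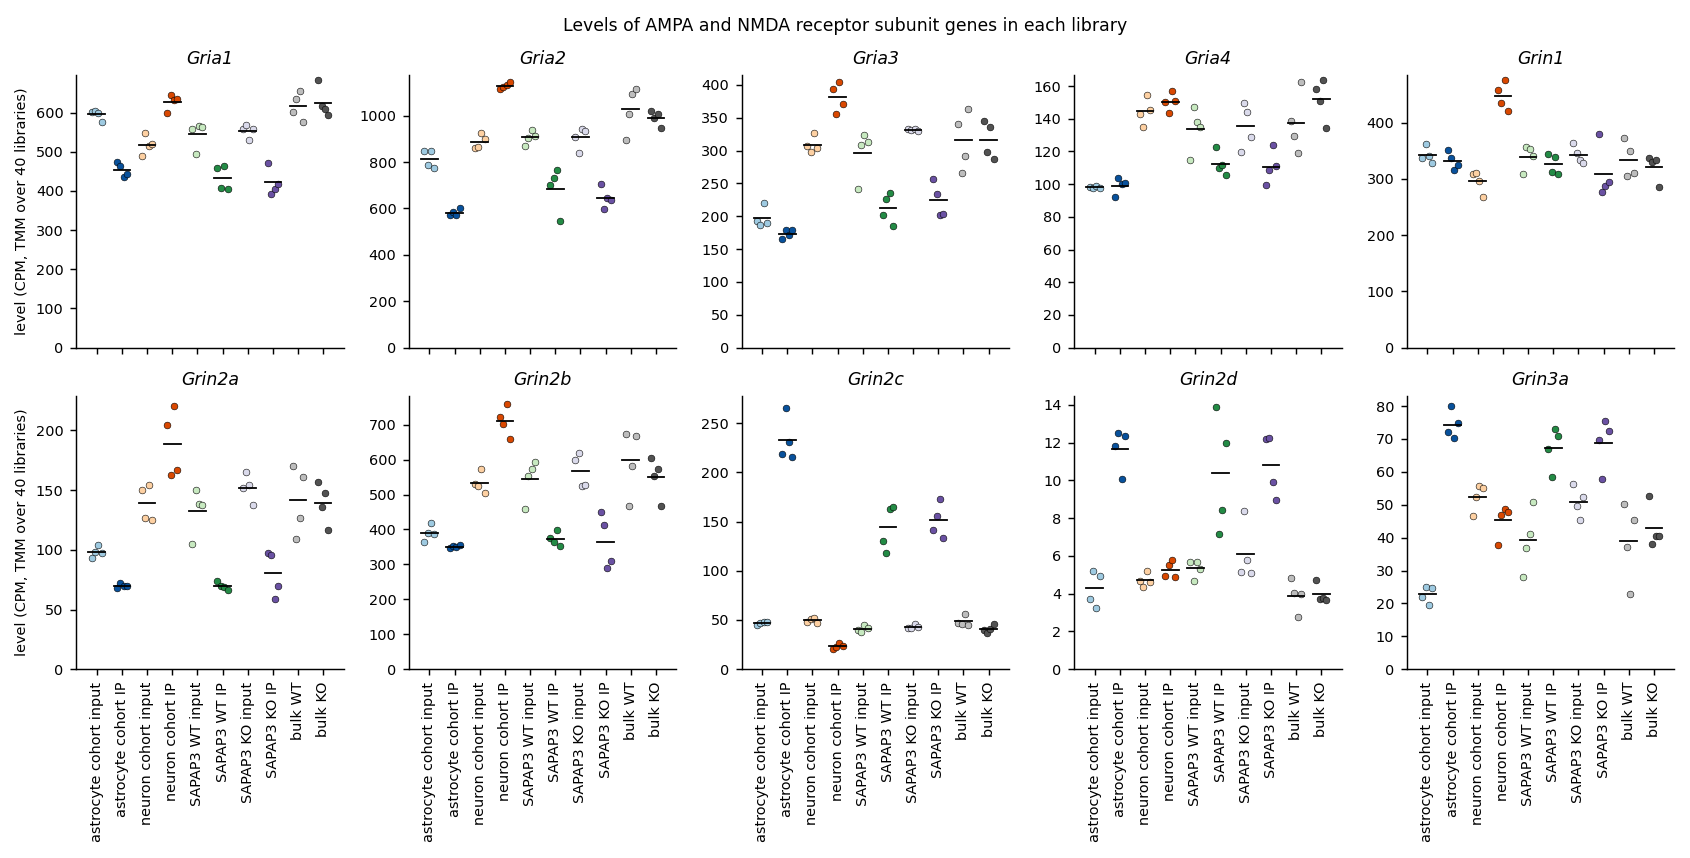
Expression of the 10 subunit genes in all 40 libraries, in CPM with library sizes scaled by TMM over all libraries. Each point is 1 library, each bar the mean of 4, and colours mark the 10 groups. Grin2c spans the widest range as a ratio of highest to lowest library. It runs from 20.8 CPM in the neuron cohort IP to 265 CPM in the astrocyte cohort IP, while Grin1 stays between 268 and 475 CPM.

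Levels were compared between genes per length, as CPM per kb of coding sequence. Gria2 was the highest of the 10 in all 10 groups and Grin2d the lowest. In the astrocyte cohort inputs the mean was 301 ± 14.5 CPM per kb for Gria2, 219 ± 4.80 for Gria1, 119 ± 4.90 for Grin1, 87.6 ± 5.01 for Grin2b and 74.1 ± 5.75 for Gria3, and the last pair overlapped between libraries. Gria4, Grin2a, Grin2c, Grin3a and Grin2d followed without overlap between neighbours, at 36.2 ± 0.227, 22.3 ± 1.02, 12.7 ± 0.438, 6.70 ± 0.738 and 1.08 ± 0.239 CPM per kb.

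The order was different on the tagged ribosomes. In the astrocyte cohort IP, Grin2c stood at 62.5 ± 6.14 CPM per kb, overlapping Gria3 at 64.9 ± 2.53 and above Gria4 at 36.5 ± 1.83, and Grin3a at 21.8 ± 1.23 was above Grin2a at 15.9 ± 0.426. On the ribosomes of the neuron cohort Grin2c was the second lowest at 6.27 ± 0.616 CPM per kb, below Grin3a at 13.3 ± 1.497, whereas in the inputs of that cohort the levels of Grin2c and Grin3a overlapped. Grin2b, Grin1 and Gria3 followed Gria2 and Gria1 there at 159.7 ± 9.30, 155 ± 8.23 and 143 ± 8.08, with overlap between neighbours.

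Relative to the median gene, the subunit mRNAs split into the same parts in the astrocyte cohort and in both SAPAP3 genotypes. Grin2c, Grin2d and Grin3a were higher in the IP than in the input, and the other 7 were lower or did not pass the test, directions that turned for 7 of the 7 in the astrocyte cohort, 6 in SAPAP3 WT and 5 in SAPAP3 KO under ribosomal protein scaling. Neuron markers moved beside the 7. Of 10, 6 were lower and 2 higher with no fold limit in the astrocyte cohort (median log2(FC) -0.79), 6 and 1 in SAPAP3 WT (-0.55) and 8 and 1 in SAPAP3 KO (-0.49). Their sum was 6248 to 6619.7 CPM in the inputs and 5122 to 5486 in the IP of the astrocyte cohort, 6659 to 7230.4 and 4829 to 6144 in SAPAP3 WT, and 6705 to 7317 and 4806 to 5636 in SAPAP3 KO, and their part in the subunit values was not tested. In the astrocyte cohort 3 of 10 genes were called at an edgeR adjusted p under 0.05 and a log2(FC) beyond 1, all higher, against 26.9% of all genes tested, and 9 of 10 with no fold limit, 3 higher and 6 lower, against 80.4%. The median log2(FC) of the 10 was -0.17, against -0.02 for all genes. The neuron cohort had 1 of 10 called, Grin2c, which was lower, against 16.3% of all genes, and 8 of 10 with no fold limit, 6 higher and 2 lower, against 71.3%, with a median of 0.24 against 0.00 for all genes on the log2 scale. Of the 6 that were higher, Gria1, Gria2, Gria3 and Grin2a no longer passed the adjusted p with library totals as the scaling, which moved the median of all genes by -0.21 on the log2 scale, and Gria1, Gria3 and Grin2a no longer passed with a filter on FPKM, while Grin1 and Grin2b passed under both. In SAPAP3 WT 1 of 10, Grin2c, was called higher against 23% of all genes, and 9 of 10 with no fold limit, 3 higher and 6 lower, against 67.3%. In SAPAP3 KO the counts were the same, against 23.8% and 71.9%. The share of subunits called with the fold limit was no larger than that of all genes except in the astrocyte cohort, where it was close to it. These directions are relative to TMM scaling: scaled to ribosomal protein genes instead, the log2(FC) of all genes shifted by a median of 1.19 in the astrocyte cohort, 0.74 in SAPAP3 WT, 0.63 in SAPAP3 KO and 0.46 in the neuron cohort, which turned the sign of the lower subunits there except Grin2a in the SAPAP3 cohort, Grin2b in SAPAP3 KO and Grin2c in the neuron cohort. After subtraction of that shift no subunit had another direction than under TMM in these comparisons. Folds below come from the 8 libraries of each comparison with their own scaling, so they can differ slightly from the ratio of the levels.

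**Figure D2:**
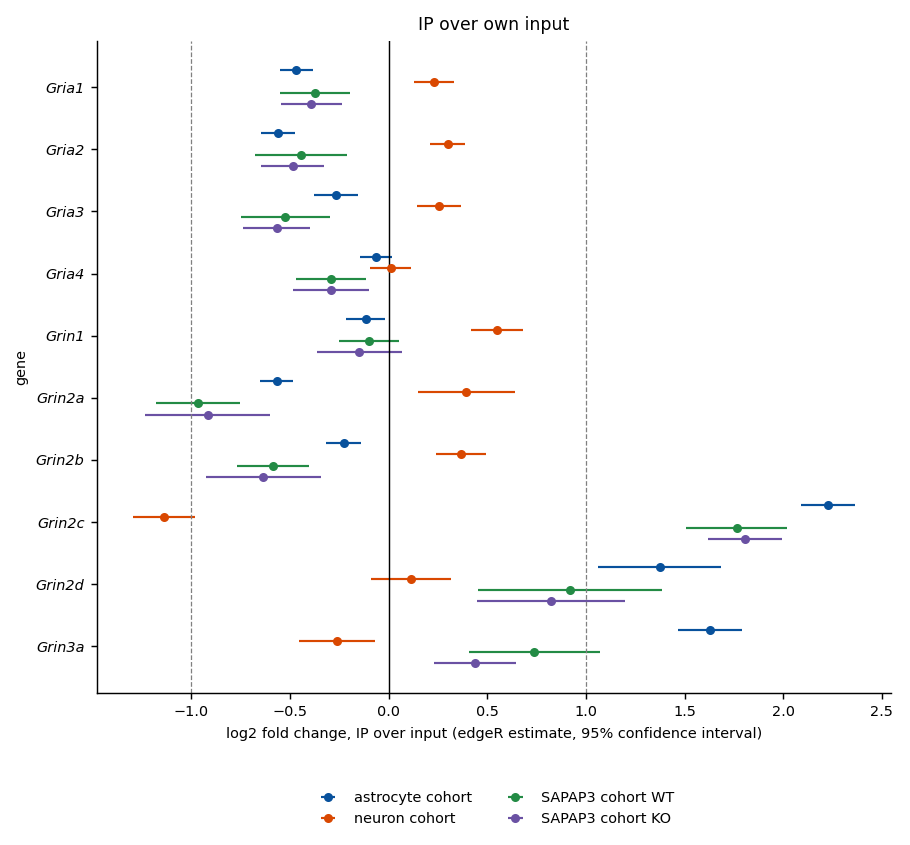
The log2 fold change of IP over input for the 10 subunit genes in the 4 settings with an IP; points are edgeR estimates, bars their 95% confidence intervals, and the dotted lines mark the limit of 1 in either direction. Grin2c lies at 2.23, 1.76 and 1.81 in the astrocyte cohort, SAPAP3 WT and SAPAP3 KO and at -1.14 in the neuron cohort, under TMM scaling; scaling to ribosomal protein genes moves each setting upwards and turns the sign of most subunits left of 0 outside the neuron cohort.

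Of the AMPA receptor subunits, Gria2, the subunit that limits calcium entry, was the most reduced in the astrocyte cohort IP. It stood at 848, 789, 848 and 773 CPM in the 4 inputs and 571, 583, 570.1 and 599.7 in the 4 IP libraries. Every IP library was below every input, with a log2(FC) of -0.56 (SE 0.04, edgeR adjusted p = 1.18e-07). The order was the other way round in the neuron cohort, with 860.5, 867, 925 and 901 CPM in the inputs and 1114, 1125, 1131 and 1147 in the IP, again without overlap (log2(FC) 0.30, SE 0.04, edgeR adjusted p = 7.54e-05). In the SAPAP3 cohort Gria2 stood at 869, 904, 937 and 913 CPM in WT inputs and 703, 732, 764 and 544 in WT IP. All WT IP libraries were below all WT inputs, although replicate 4 of the IP was lower than the other 3, and the log2(FC) was -0.44 (SE 0.10) in WT and -0.49 (SE 0.07) in KO.

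Gria1, the partner of GluA2 in many synaptic receptors, ranged from 577 to 605 CPM in the astrocyte cohort inputs and from 435 to 475 in the IP, a log2(FC) of -0.47 (SE 0.04, edgeR adjusted p = 3.88e-07). Neuron cohort values ranged from 489 to 548 CPM in the inputs and from 598 to 644 in the IP, a log2(FC) of 0.23 (SE 0.05, edgeR adjusted p = 0.00114). In both cohorts the groups did not overlap. Its log2(FC) in the SAPAP3 cohort was -0.37 in WT and -0.39 in KO, both past the adjusted p threshold.

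Gria3 was lower by a smaller amount in the astrocyte cohort IP, at 165, 179, 171 and 178 CPM against 193, 187, 220.2 and 190.1 in the inputs. The groups did not overlap (log2(FC) -0.27, SE 0.05, edgeR adjusted p = 5.01e-04). The difference was -0.52 in SAPAP3 WT and -0.57 in SAPAP3 KO on the log2 scale, and 0.26 in the neuron cohort, where the IP stood at 394, 356.1, 404 and 372 CPM against 307, 298, 326 and 305 in the inputs. Gria4, which gives receptors with fast kinetics, was the AMPA subunit with the least difference. It stood at 98.1, 97.6, 98.9 and 97.7 CPM in the inputs and 92.0, 104, 99.9 and 101 in the IP of the astrocyte cohort, and these overlapped on this scale (log2(FC) -0.06, 95% CI -0.14 to 0.02, edgeR adjusted p = 0.136). The neuron cohort overlapped as well, at 135 to 155 CPM in inputs and 144 to 157 in IP (log2(FC) 0.01, 95% CI -0.10 to 0.11, edgeR adjusted p = 0.866). Gria4 was lower in the IP of the SAPAP3 cohort, with overlap between libraries, at a log2(FC) of -0.29 in WT and -0.29 in KO (edgeR adjusted p = 0.00838 and 0.0113).

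Grin1, present in every NMDA receptor, was nearly level between astrocyte cohort IP and input. It stood at 338, 361, 341 and 328 CPM in the inputs and 352.3, 336, 315 and 325 in the IP. The groups overlapped, and the log2(FC) of -0.12 (SE 0.04, edgeR adjusted p = 0.0296) no longer passed the adjusted p when no filter on low counts was used (edgeR adjusted p = 0.113) or when any of 6 of the 8 libraries was left out, all but input replicate 4 and IP replicate 1 (0.055 to 0.135). These fits ignore the pairing, and with the mice as a block the edgeR adjusted p was 0.0082. Neither SAPAP3 genotype passed the test (log2(FC) -0.10, 95% CI -0.25 to 0.05, in WT and -0.15, 95% CI -0.36 to 0.07, in KO), although KO passed without IP replicate 1 (edgeR adjusted p = 0.0025), the library with the highest Grin1. Of the 10 genes Grin1 had the largest increase in the neuron cohort, from 309, 310.3, 296 and 268 CPM in the inputs to 457, 435, 475 and 422 in the IP, without overlap (log2(FC) 0.55, SE 0.06, edgeR adjusted p = 1.68e-05).

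Grin2a and Grin2b encode the GluN2 subunits that predominate in the adult forebrain. Grin2a stood at 92.8, 98.4, 104 and 97.6 CPM in the astrocyte cohort inputs and 67.7, 72.3, 69.7 and 69.6 in the IP. Every IP library was below every input (log2(FC) -0.57, SE 0.04, edgeR adjusted p = 7.50e-08), and the same held in SAPAP3 WT (105, 150.4, 139 and 138 CPM in inputs, 73.9, 69.6, 69.2 and 66.8 in IP). The log2(FC) of -0.97 in SAPAP3 WT and -0.92 in SAPAP3 KO lay just inside the limit of 1, and Grin2a passed it in WT without input replicate 1 or IP replicate 1 (-1.05 and -1.01) and in KO without IP replicate 1 or 2 (-1.016 and -1.005). Grin2a was higher in the IP of the neuron cohort, at 204, 163, 221 and 167 CPM against 149.8, 127, 154 and 125, with every IP library above every input (log2(FC) 0.39, SE 0.11, edgeR adjusted p = 0.00853).

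Grin2b stood at 363, 390.1, 418 and 387 CPM in the astrocyte cohort inputs and 347, 352.4, 349 and 354 in the IP. The groups did not overlap (log2(FC) -0.23, SE 0.04, edgeR adjusted p = 2.86e-04). In the SAPAP3 cohort the log2(FC) was -0.59 in WT and -0.64 in KO, and Grin2b increased in the neuron cohort IP, from 529, 526, 574 and 504 to 722, 703, 758 and 659 CPM (log2(FC) 0.37, SE 0.06, edgeR adjusted p = 2.23e-04). Cortical glutamatergic markers were also lower in the SAPAP3 cohort IP, with 2 of 5 called in WT (median log2(FC) -1.83) and 5 of 5 in KO (-1.62), while with no fold limit 4 of 5 were higher in the astrocyte cohort IP (0.96) and 1 of 5 in the neuron cohort IP (0.17). Their sum was 76.3 to 712 CPM in the inputs and 16.5 to 249 in the IP of SAPAP3 WT, 679 to 839 and 118 to 362 in SAPAP3 KO, and 70.9 to 106 and 72.2 to 287 in the astrocyte cohort, and their part in the values of Grin2b and the other subunits was not tested.

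Grin2c, known from cerebellar granule cells, thalamus and astrocytes, gave the largest differences. It stood at 44.8, 47.1, 48.3 and 48.2 CPM in the astrocyte cohort inputs and 218, 265, 231 and 215 in the IP. All 4 IP libraries were above all inputs, by 4.68-fold (log2(FC) 2.23, SE 0.06, edgeR adjusted p = 4.99e-11). In SAPAP3 WT the inputs stood at 40.0, 37.6, 44.7 and 42.2 CPM and the IP at 131, 118, 163 and 164, and in SAPAP3 KO at 41.8, 42.1, 46.1 and 42.8 and 142, 156, 173 and 134. Both were separated without overlap, by 3.40-fold in WT and 3.50-fold in KO (edgeR adjusted p = 1.48e-06 and 3.26e-08). The neuron cohort inputs stood at 48.3, 51.1, 52.3 and 47.0 CPM and the IP at 20.8, 22.4, 26.2 and 23.9. Here every IP library was below every input, at 0.454 of the input level (log2(FC) -1.14, SE 0.07, edgeR adjusted p = 4.96e-07), and this kept its direction but not the fold limit with ribosomal protein scaling (-0.68). The summed markers of astrocytes moved in the direction of Grin2c. Their sum was 5599 to 5934 CPM in the neuron cohort inputs and 3783 to 4166 in its IP, and 5513 to 7029 against 24609 to 34833 in SAPAP3 WT and 6481 to 7507 against 30205 to 38783 in SAPAP3 KO. Single markers were mixed in the neuron cohort IP, where with no fold limit 7 of 10 were lower and 1 higher. The part of these markers in the Grin2c result was not tested.

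Grin3a, whose subunit lowers the calcium permeability of NMDA receptors, stood at 22.1, 24.9, 19.6 and 24.8 CPM in the astrocyte cohort inputs and 72.2, 80.0, 70.4 and 74.8 in the IP. The groups were far apart, at 3.09-fold (log2(FC) 1.63, SE 0.07, edgeR adjusted p = 2.59e-09). The SAPAP3 cohort IP levels overlapped those of the astrocyte cohort IP (67.0, 58.3, 73.2 and 70.8 CPM in WT, 69.7, 57.9, 75.5 and 72.5 in KO), while the inputs were all above those of the astrocyte cohort, at 28.2, 36.8, 41.2 and 50.9 CPM in WT and 56.4, 49.7, 45.4 and 52.4 in KO. The log2(FC) was smaller, 0.74 (SE 0.15, edgeR adjusted p = 0.00158) in WT and 0.44 (SE 0.09, edgeR adjusted p = 0.00159) in KO. For the neuron cohort, the inputs stood at 46.5, 52.5, 55.8 and 55.1 CPM and the IP at 37.7, 46.9, 48.6 and 47.8. These overlapped, and the log2(FC) was -0.26 (SE 0.09, edgeR adjusted p = 0.0186), with the sign turned by ribosomal protein scaling before subtraction of its shift and the threshold missed without input replicate 3 or 4 (edgeR adjusted p = 0.051 and 0.054). These fits ignore the pairing, and with the pairs by title number as a block the edgeR adjusted p was 5.11e-06.

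Grin2d, known in the forebrain mainly from interneurons, was the scarcest subunit. It stood at 3.74, 5.23, 3.23 and 4.92 CPM in the astrocyte cohort inputs and 11.8, 12.5, 10.1 and 12.3 in the IP, without overlap (2.59-fold, log2(FC) 1.37, SE 0.14, edgeR adjusted p = 3.42e-06). In the SAPAP3 cohort the log2(FC) was 0.92 (SE 0.21, edgeR adjusted p = 0.00314) in WT and 0.82 (SE 0.17, edgeR adjusted p = 0.00117) in KO, and it passed the limit of 1 without WT IP replicate 2 (1.05) or without KO input replicate 2 (1.02). Neuron cohort IP and input overlapped (log2(FC) 0.11, 95% CI -0.09 to 0.31, edgeR adjusted p = 0.289).

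Markers of other cells than astrocytes also moved in these IP libraries, beside Grin2d and Grin3a. Of 6 striatal interneuron markers, 5 were called higher in the IP of the astrocyte cohort and of SAPAP3 WT, and 2 in SAPAP3 KO. With no fold limit 1 of the 6 was lower in the astrocyte cohort (log2(FC) -0.83) and 1 in SAPAP3 KO (-0.58). The sum of the 6 was 219.9 to 232 CPM in the astrocyte cohort inputs and 890.3 to 1013 in the IP. It was 213 to 254 CPM in the inputs and 566 to 679 in the IP of SAPAP3 WT, and 237.7 to 278 and 576 to 639 in SAPAP3 KO. For the neuron cohort the sum was 207 to 228 CPM in the inputs and 349 to 377 in the IP, with 2 of 6 called higher. The 5 oligodendrocyte precursor markers summed to 192 to 208 CPM in the inputs and 256 to 287 in the IP of the astrocyte cohort, and to 249 to 266 and 59.2 to 65.0 in the neuron cohort. For SAPAP3 WT these sums were 191 to 218 and 250.4 to 391 CPM, with 0 of 5 called higher, and for SAPAP3 KO 203 to 215 and 356.9 to 430.1 CPM, with 3 of 5 called higher. The 7 oligodendrocyte markers summed to 5245 to 6208 CPM in SAPAP3 WT inputs and 7518 to 11049 in the IP, and to 5530.4 to 5764 and 6975 to 10022 in SAPAP3 KO, with 3 of 7 called higher in each. In the astrocyte cohort they summed to 4988 to 5871 CPM in the inputs and 3493 to 5885 in the IP, with 1 of 7 called lower. In the neuron cohort the sums were 4495 to 6041 and 1386 to 2149 CPM, with 7 of 7 called lower. The part of these cells in the subunit results was not tested.

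The makeup of the receptor RNA was compared within each library, as each subunit's share of the counts per coding kb of its family, which no scaling of library size can move. Of the GluN2 and GluN3A subunits together, Grin2b held the largest share in every library and Grin2d the smallest. In the astrocyte cohort inputs the share of Grin2c was 9.85, 9.64, 9.47 and 9.92 percent, and in the IP it was 33.3, 36.8, 34.6 and 32.5 percent. The mean thus went from 9.72% ± 0.205 to 34.3% ± 1.91 (SD), while Grin2b went from 67.2% ± 0.909 to 43.4% ± 1.68, Grin2a from 17.1% ± 0.136 to 8.74% ± 0.171 and Grin3a from 5.15% ± 0.652 to 11.99% ± 0.340. For all 5 subunits, Grin2d included, the IP did not overlap the input (two-sided exact permutation p = 0.0286 each, the smallest that 4 against 4 allows). That test regroups the libraries without regard to the mouse. Within mice the difference had the same sign in 4 of 4 (two-sided exact sign-flip p = 0.125 each, the smallest that 4 pairs allow).

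In the SAPAP3 cohort the 5 shares were likewise separated in both genotypes. Grin2c rose from 6.31% ± 0.738 to 24.0% ± 2.75 in WT and from 6.14% ± 0.647 to 25.0% ± 4.39 in KO. In the neuron cohort it went the other way, from 7.18, 7.75, 7.18 and 7.35 percent in the inputs to 2.47, 2.79, 2.89 and 3.09 percent in the IP, while Grin2b went from 66.1% ± 0.420 to 71.5% ± 1.26 and Grin3a from 8.50% ± 0.772 to 5.96% ± 0.812. The shares of Grin2a and Grin2d overlapped in that cohort. The size of a share depends on the length used: with the longest transcript in place of the coding sequence, the Grin2c share was 33.4 percentage points higher in the IP than in the input of the astrocyte cohort, while IP minus input was -11.8 points for the neuron cohort.

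**Figure D3:**
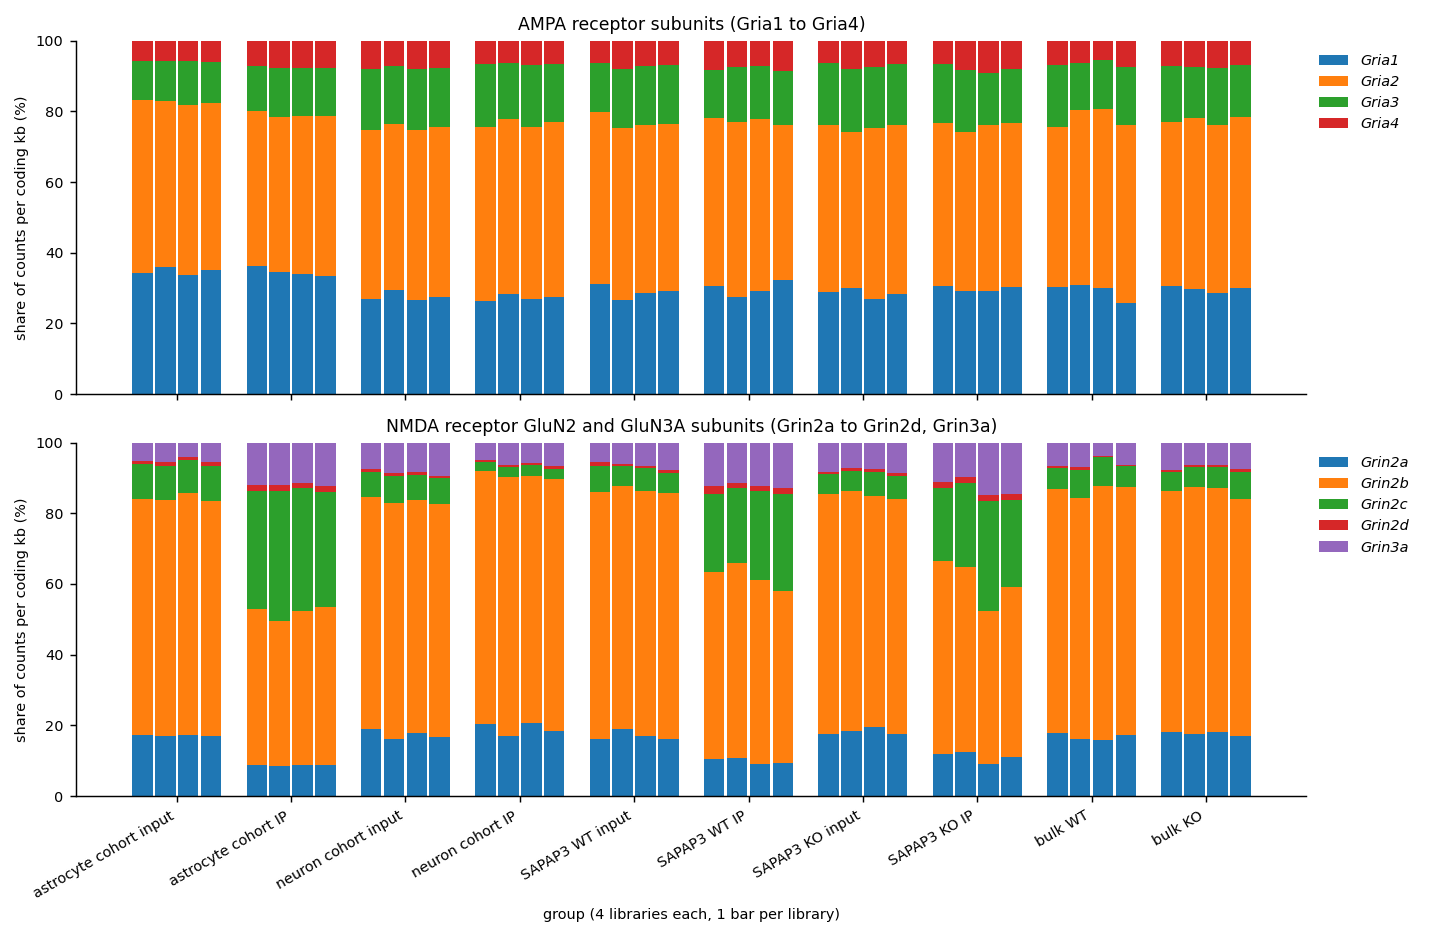
Share of each subunit in its receptor family, in percent of counts per coding kb, for the AMPA subunits and for the GluN2 and GluN3A subunits. Stacked bars start at 0 and cover the 10 groups of 4 libraries. Grin2c takes a mean of 34.3% in the astrocyte cohort IP, 24.0% and 25.0% in the SAPAP3 WT and KO IP, and 2.81% in the neuron cohort IP.

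The shares of the AMPA receptor RNA moved by fewer percentage points in the astrocyte cohort than the largest shares of the NMDA receptor RNA. Gria2 held 47.7% ± 0.771 of it in the astrocyte cohort inputs and 44.5% ± 0.715 in the IP, and Gria4 went from 5.75% ± 0.171 to 7.57% ± 0.355. These and Gria3 did not overlap between IP and input, whereas Gria1 did, at 34.8% ± 0.903 and 34.5% ± 1.27. In the neuron cohort Gria2 went from 47.7% ± 0.579 to 49.3% ± 0.498 and Gria4 from 7.75% ± 0.333 to 6.56% ± 0.178, both without overlap and in the other direction than in the astrocyte cohort. In the SAPAP3 cohort all 4 shares overlapped between IP and input in both genotypes. Over all 7 comparisons of shares, 6 of 28 AMPA shares and 19 of 35 NMDA shares did not overlap. Of these, KO over WT gave 1 AMPA share and 1 NMDA share, both in the inputs, and the rest came from IP over input. Shares of a family add up to the whole, so they are not independent. They were not computed for other genes, so no rate over all genes stands beside these counts.

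The difference between the astrocyte and the neuron cohort was tested itself, as an interaction of IP over input with cohort. Of the 10 subunits 9 passed an edgeR adjusted p under 0.05, against 70.1% of all genes, 6 with a higher log2(FC) in the neuron cohort and 3 with a lower one. Grin2c differed by -3.37 (SE 0.10), Grin3a by -1.89 (SE 0.12) and Grin2d by -1.26 (SE 0.18) on the log2 scale. In the other direction stood Grin2a at 0.96, Gria2 at 0.86, Gria1 at 0.70, Grin1 at 0.66, Grin2b at 0.59 and Gria3 at 0.52. Gria4 did not pass (0.07, 95% CI -0.06 to 0.20, edgeR adjusted p = 0.332). Scaled to ribosomal protein genes, which moved the median of all genes by -0.74, 4 of 10 passed, and the signs of Gria1, Gria3, Gria4, Grin1 and Grin2b turned before subtraction of that shift. The share of all genes that passed under this scaling is not given here.

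Set directly against the astrocyte cohort IP, the neuron cohort IP held 0.0978 of its Grin2c level (log2(FC) -3.35, SE 0.09, edgeR adjusted p = 3.13e-10) and 0.440 of its Grin2d level, while Grin2a was 2.64-fold and Gria3 2.15-fold higher. These 4 genes passed the fold limit, 4 of 10 against 27.8% of all genes, while Grin2b stood just under it at 0.98 (1.04 with library totals), and 10 of 10 passed without it, against 79.6%, with 7 higher and 3 lower. With ribosomal protein scaling, where the median of all genes moved by 1.19, the sign of Grin3a turned and Grin2d had a log2(FC) of 0.00. The inputs of the same cohorts, which hold no purification, differed in 1 of 10 subunits past the limit, against 7.46% of all genes, and in 7 of 10 without it, against 53.8%. That gene was Grin3a, at 46.5, 52.5, 55.8 and 55.1 CPM in the neuron cohort inputs against 22.1, 24.9, 19.6 and 24.8 in the astrocyte cohort inputs (log2(FC) 1.17, SE 0.08, edgeR adjusted p = 5.39e-07). Gria3, Gria4, Grin2a and Grin2b were also higher in the neuron cohort inputs, by 0.61, 0.52, 0.47 and 0.42 on the log2 scale, and Gria1 and Grin1 were lower, at a log2(FC) of -0.24 each, both of which turned with ribosomal protein scaling, where the median gene moved by 1.9. Markers of cortical glutamatergic neurons were called higher in the neuron cohort inputs for 5 of 5 genes. These markers, the sex of the mice and the cohort cannot be told apart here.

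**Figure D4:**
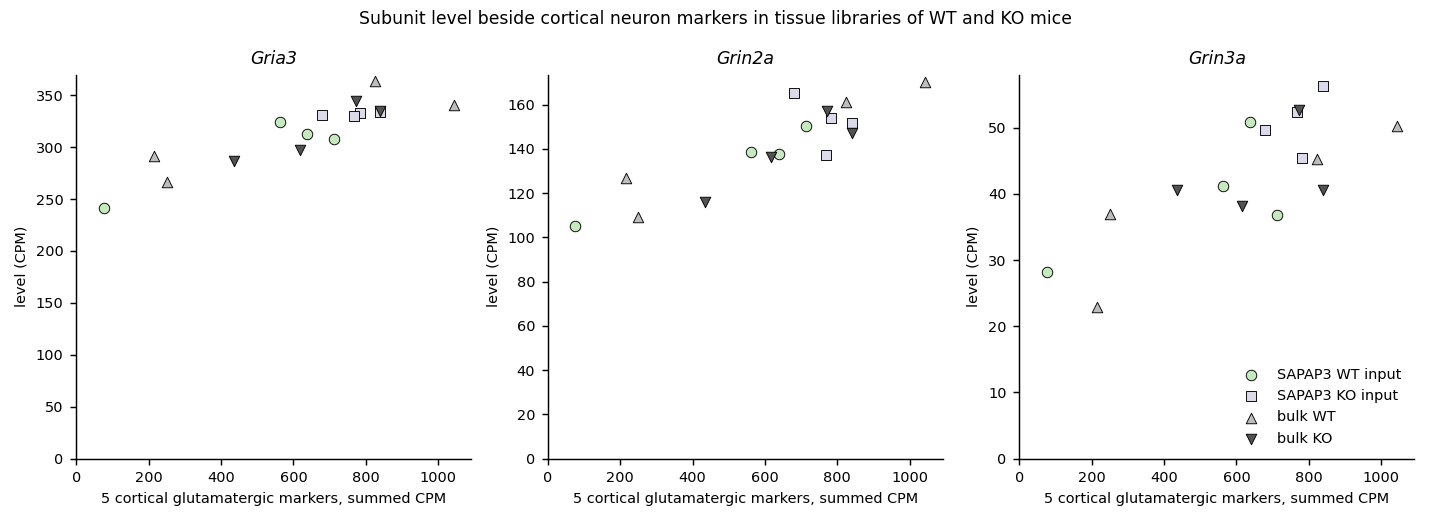
Levels of Gria3, Grin2a and Grin3a against 5 cortical glutamatergic neuron markers, summed, both in CPM. Each point is 1 tissue library, and colours mark the WT and KO inputs of the SAPAP3 cohort and the bulk WT and KO groups. WT input replicate 1 of the SAPAP3 cohort held 76.3 CPM of the markers. The 4 astrocyte cohort inputs, which are not drawn, held 70.9 to 106 CPM.

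Between genotypes, no subunit passed an edgeR adjusted p under 0.05 in any of 3 comparisons, and here no fold limit was used. In the inputs 0 of 10 were called, against 0.00641% of all genes (1 gene, Dlgap3), in the IP 0 of 10 against 0.0263%, and in bulk striatum 0 of 10 against 0%. DESeq2 and limma-voom called 0 of 10 as well. At an unadjusted p under 0.05 edgeR had 1 of 10 in the inputs (Grin3a), 0 in the IP and 1 in bulk (Grin2c), where 869, 399 and 792 genes of all those tested stood. Dlgap3 itself fell by 1.19 in the inputs, 1.40 in the IP and 1.14 in bulk on the log2 scale, with edgeR adjusted p = 0.00698, 0.0283 and 0.318, so that in bulk not even the targeted gene passed the threshold.

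In the inputs, the intervals of Gria1 (-0.12 to 0.16), Gria2 (-0.14 to 0.14), Grin1 (-0.12 to 0.15) and Grin2c (-0.08 to 0.21) bounded the KO over WT difference on the log2 scale. Gria3 stood at 242, 308, 324 and 313 CPM in WT and 333, 331, 333 and 329.7 in KO, the sole subunit whose groups did not overlap, against 4.03% of all genes. Its log2(FC) was 0.16 (95% CI -0.02 to 0.34, edgeR adjusted p = 0.735) and 0.08 without WT replicate 1. Grin3a stood at 28.2, 36.8, 41.2 and 50.9 CPM in WT and 56.4, 49.7, 45.4 and 52.4 in KO. These overlapped, and the log2(FC) of 0.37 (95% CI 0.04 to 0.71, edgeR adjusted p = 0.735) was 0.25 without WT replicate 1. That library was the lowest of the WT inputs for 7 of the 10 subunits, all but Gria1, Grin2c and Grin2d, and it was the library with few cortical markers. Over all 5 cortical markers the median log2(FC) of KO over WT inputs was 0.56, with 0 of 5 called, and their part in the subunit values was not tested.

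In the IP the log2(FC) of the 10 subunits lay between -0.09 and 0.20, and all groups overlapped, where 1.55% of all genes did not. Grin2a had the largest of these at 73.9, 69.6, 69.2 and 66.8 CPM in WT and 97.1, 96.0, 59.1 and 69.96 in KO. KO replicates 1 and 2 were above all WT libraries and KO replicate 3 was below them, so that the 95% CI ran from -0.12 to 0.52. Grin2c, the subunit richest over input in these IP libraries, had a log2(FC) of 0.07 (95% CI -0.20 to 0.33). The IP over input values of WT and KO, tested as an interaction, differed in 0 of 10 subunits against 0% of all genes with edgeR, with 203 of all genes and no subunit at an unadjusted p under 0.05, and 0 of 10 with DESeq2 and limma-voom. The largest was Grin3a at -0.34 (95% CI -0.74 to 0.07).

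In bulk striatum Grin2c stood at 47.4, 46.2, 55.8 and 45.3 CPM in WT and 39.8, 37.3, 40.7 and 46.0 in KO. The groups overlapped through KO replicate 4 and WT replicate 4, and the log2(FC) was -0.25 (95% CI -0.45 to -0.05, edgeR adjusted p = 0.984). No subunit was free of overlap, against 3.08% of all genes. The astrocyte cohort's other enriched subunits stood at 0.15 (95% CI -0.34 to 0.63) for Grin3a and 0.02 (95% CI -0.36 to 0.40) for Grin2d. Without WT replicates 2 and 3, the libraries with few cortical markers, an alternative chosen after seeing the data, Grin2c stood at -0.18, Grin3a and Grin2d at -0.15 each and Gria3 at -0.15, with 0 of 10 called. Between KO and WT inputs of the SAPAP3 cohort 1 of 4 AMPA shares and 1 of 5 NMDA shares did not overlap. These were Gria3 (mean 15.9% in WT and 17.5% in KO) and Grin2b (69.4% and 67.0%). The two-sided exact permutation p was 0.0286 each, not adjusted for the shares compared. WT replicate 1, the library with few cortical markers, had the lowest Gria3 share of these inputs, at 13.7%. The Gria3 difference of 1.51 percentage points was 0.77 without that library. No share was free of overlap in the IP or in bulk.

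**Figure D5:**
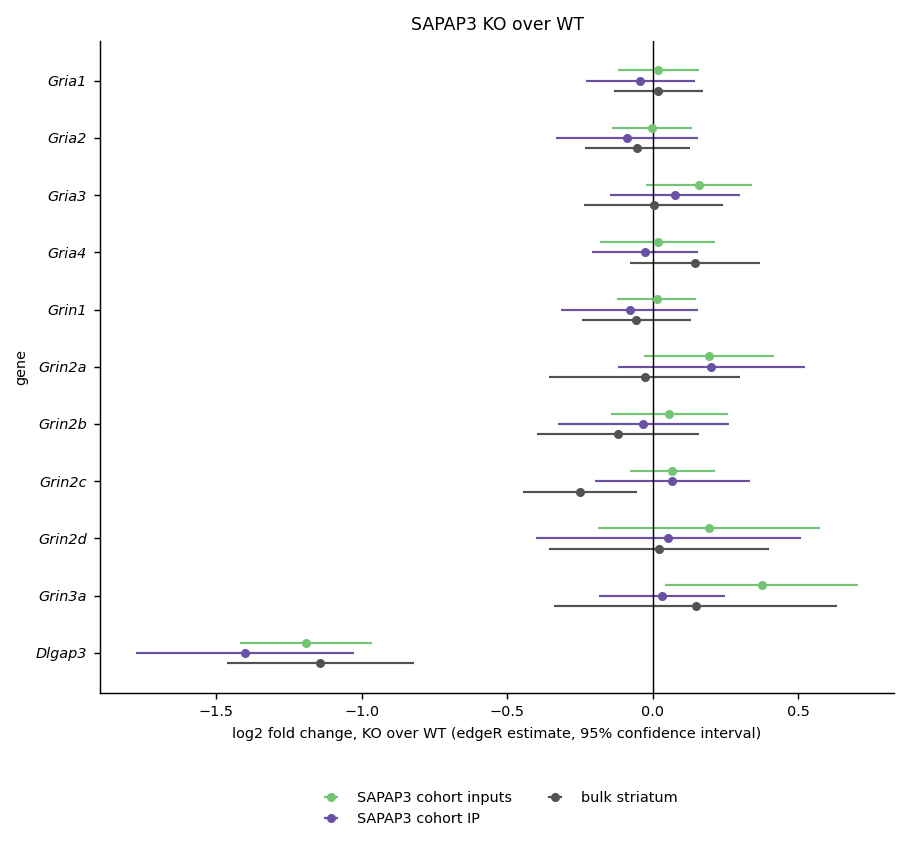
The log2 fold change of KO over WT for the 10 subunit genes and Dlgap3 in the SAPAP3 cohort inputs, its IP and bulk striatum; points are edgeR estimates and bars their 95% confidence intervals. Dlgap3 lies between -1.40 and -1.14, while the subunits lie between -0.25 and 0.37.

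Of genes that act with these receptors, 13 encode auxiliary subunits that set the trafficking and gating of AMPA receptors. In the astrocyte cohort IP 1 of the 13 was called higher, Shisa6 (log2(FC) 1.21), and 3 lower, Cnih2 (-1.97), Cacng3 (-1.33) and Cacng7 (-1.03). These 4 of 13 stood against 26.9% of all genes. With no fold limit 1 was higher and 11 lower, against 80.4% of all genes in either direction, and the median of the list was -0.80 against -0.02 for all genes under TMM. SAPAP3 WT had 0 higher and 5 lower past the limit (Cnih3 -1.69, Cnih2 -1.64, Cacng3 -1.22, Cacng7 -1.17, Frrs1l -1.13) against 23% of all genes, and SAPAP3 KO 0 higher and 4 lower (Cnih3 -1.96, Cnih2 -1.56, Cacng3 -1.35, Frrs1l -1.18) against 23.8%. There were 0 higher and 1 lower in the neuron cohort, Cacng7 (-1.06), against 16.3% of all genes, and the median was 0.07. Ribosomal protein scaling was not run on this list, and its shift of 1.19 in the astrocyte cohort is larger than that median.

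Of 8 other ionotropic glutamate receptor genes, the kainate, delta and GluN3B subunits, 0 passed the fold limit in any of the 4 comparisons of IP with input. With no limit 2 were higher and 3 lower in the astrocyte cohort, against 80.4% of all genes in either direction. The counts were 0 and 4 in SAPAP3 WT against 67.3%, 1 and 5 in SAPAP3 KO against 71.9%, and 3 and 3 in the neuron cohort against 71.3%. Among them the kainate subunit Grik5 had a log2(FC) of -0.82 and Grik2 of -0.74 in the astrocyte cohort. Neto1, an auxiliary subunit of kainate receptors, was called lower there (-1.07) and in both SAPAP3 genotypes (-1.31 in WT, -1.13 in KO), and its partner Neto2 was not past the limit. Of 8 genes for receptor trafficking, clustering and RNA editing, 1 passed the limit in 1 setting, SAPAP3 KO, against 23.8% of all genes. It was Nptxr (-1.32), a neuronal pentraxin receptor that clusters AMPA receptors. With no limit 4 of the 8 were higher and 2 lower in the astrocyte cohort, against the same shares of all genes. The counts were 0 and 3 in SAPAP3 WT, 0 and 5 in SAPAP3 KO and 6 and 0 in the neuron cohort. Between genotypes 0 genes of these lists were called by edgeR in the inputs, the IP or bulk.

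The genes whose log2(CPM + 1) followed each subunit most closely were sought among 14008 genes over the 40 libraries, as a description, since these points share libraries, cohorts and purification. Grin2c was followed by Btbd17 (Pearson r = 0.994), Ttyh1 (r = 0.990) and Bcan (r = 0.989), which encodes the matrix proteoglycan brevican. Among AMPA subunits the nearest were Pip5k1a for Gria1 (r = 0.959), Zfp382 for Gria2 (r = 0.958), Kcnma1, a calcium-activated potassium channel, for Gria3 (r = 0.980) and Ppfia2 for Gria4 (r = 0.933). Among the remaining NMDA subunits they were Pip5k1c for Grin2a (r = 0.984), D430041D05Rik for Grin2b (r = 0.980), Dner for Grin3a (r = 0.945), Plbd2 for Grin2d (r = 0.928) and Cntnap1 for Grin1 (r = 0.875), the loosest of the 10.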

How the data were processed

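STAR, HTSeq and the mm10 build are named in the submitters' processing notes, and the authors deposited raw counts per gene for 40 libraries, without normalization. The versions, the gene annotation and the strand setting are not given in the sources used here. The labels name a TruSeq stranded kit with rRNA removal and the study's methods another kit. The study's reporting summary names ComBat, and the deposited counts are whole numbers. All 40 columns matched a sample, and no column of other samples was left (0). No library pair was identical, and each library is a separate sample in the labels.

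From the deposited counts, each comparison was fitted over all genes with edgeR 4.0.16 in R 4.3.3 (filterByExpr, TMM, glmQLFit, glmQLFTest), with only the compared groups in the fit (8 libraries, or 16 with an interaction term), and p-values were adjusted by Benjamini-Hochberg over all genes tested. Comparisons of IP with input and between cohorts were called at an adjusted p under 0.05 with a fold limit of 1 in either direction on the log2 scale, and genotypes and interactions at an adjusted p under 0.05. Levels are CPM with TMM over all 40 libraries. Levels per kb and shares use the coding sequence in RefSeq on GRCm38.p6, since 3′ ends differ in their annotated extent. The FPKM filter uses the merged exon length of each gene, found for 99.2% of symbols. Exact permutation tests (two-sided) served for shares, and their smallest p is 0.0286. They regroup libraries without regard to pairs, and the exact sign-flip test within 4 pairs has a smallest p of 0.125. Total counts of 23438112 to 84109800 put at least 103 reads behind every value. The spread between libraries sets the error.

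Input and IP libraries were paired by animal in the astrocyte and SAPAP3 cohorts and by title number in the neuron cohort. Deviations from the group means over 11753 genes correlated at 0.247 or more within every pair. Between others the average was -0.202 to -0.149. Deviations within a group sum to 0, so this negative sign follows from the positive pairs and is no separate check of the pairing. The members and gene lists were chosen with earlier results of these data known: the 10 subunits, the called genes of 4 lists of receptors, auxiliary subunits and trafficking genes, Dlgap3, and the nearest 3 genes to each subunit by Pearson r among genes averaging 1 CPM or more, of which the first is given (3 for Grin2c). Alternatives were DESeq2 1.42.0, limma-voom (limma 3.58.1), library totals, scaling to ribosomal protein genes, no filter, a minimum FPKM of 5 in 4 libraries, no fold limit, the pairing as a block, sex as a covariate, each library left out, and other lengths for shares. The edgeR script was tested on simulated data.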

Additional observations from a re-analysis of the deposited data

Results flagged for a closer look

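Of 100 groups of 4 values (10 subunits in 10 groups), 6 held a library far from the other 3 by Dixon's ratio, and chance alone gives about 1 in 20. Gria1 was low in SAPAP3 WT input replicate 2, at 496 CPM against 559 to 565 in the others. Grin1 was high in SAPAP3 KO IP replicate 1, at 380.4 CPM against 276 to 294, and low in bulk KO replicate 4, at 285 CPM against 331 to 337. Grin2d and Grin3a were both high in bulk KO replicate 1, at 4.71 CPM against 3.64 to 3.78 and at 52.7 CPM against 38.2 to 40.6. Grin3a was low in neuron cohort IP replicate 1, at 37.7 CPM against 46.9 to 48.6.

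The log2(FC) of IP over input differed between the neuron and the astrocyte cohort in 9 subunits, by the interaction test of edgeR. The difference, neuron minus astrocyte cohort, was 0.70 for Gria1, 0.86 for Gria2, 0.52 for Gria3, 0.66 for Grin1, 0.96 for Grin2a and 0.59 for Grin2b. It was -3.37 for Grin2c, -1.26 for Grin2d and -1.89 for Grin3a. The cohorts also differ in sex and in cortical markers, whose part was not tested.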

How the results depend on the processing

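With DESeq2, with limma-voom and with no filter on low counts, none of the 110 subunit results (10 subunits in 11 comparisons) gained or lost its call under the limits of the report or turned in sign by more than 1 SE. With pairs as a replicate block, none of 60 did and the counts of subunits called stayed at 3, 1, 1 and 1 for IP over input in the astrocyte, neuron, SAPAP3 WT and SAPAP3 KO settings, 9 for the neuron minus astrocyte interaction and 0 for the genotype interaction. With sex as a covariate none of 20 did in the inputs and IP. In bulk, where 1 WT and 0 KO libraries had Xist above the Y genes, that fit, chosen after seeing the data, called 0 of 10, and Grin3a moved from 0.15 to -0.04 and Grin2d from 0.02 to -0.11, each by less than 1 SE. Apart from the fits with each library left out, there were 753 alternative values of single subunits. Of these, 692 kept their call under these limits and did not turn in sign by more than 1 SE. Smaller turns in sign are among the 692. So are moves across the adjusted p threshold alone where the fold limit also applied. One was Gria1 in the neuron cohort with library totals (edgeR adjusted p from 0.0011 to 0.63). The counts of shares free of overlap ranged from 5 to 8 (AMPA) and 16 to 20 (NMDA) over all alternatives, and from 6 to 8 and 19 to 20 with each library left out.

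Counts of subunits called moved with the fold limit, the scaling and the filter. With no fold limit they were 9 in the astrocyte cohort, 8 in the neuron cohort, 9 in SAPAP3 WT, 9 in SAPAP3 KO, 10 for neuron over astrocyte IP and 7 for the inputs of those cohorts. With ribosomal protein scaling they were 5 in the astrocyte cohort, 3 in SAPAP3 WT, 3 in SAPAP3 KO, 8 for neuron over astrocyte IP, 10 for the inputs and 4 for the interaction of cohorts. With library totals they were 2 in SAPAP3 WT, 2 in SAPAP3 KO and 5 for neuron over astrocyte IP, where Grin2b passed (1.04), and with the FPKM filter 0 of 8 in the neuron cohort, where Grin2c was filtered out, and 2 in each SAPAP3 genotype. With each library left out they ranged from 1 to 2 in SAPAP3 WT and in SAPAP3 KO and from 4 to 5 for neuron over astrocyte IP (Grin2b passed without neuron IP replicate 4), and without both libraries of WT mouse 1, chosen after seeing the data, they were 2.

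Ribosomal protein scaling turned these log2(FC). In the astrocyte cohort Gria1 became 0.73, Gria2 0.64, Gria3 0.94, Gria4 1.14, Grin1 1.08, Grin2a 0.63 and Grin2b 0.97, and in the neuron cohort Grin3a became 0.19. In SAPAP3 WT Gria1 became 0.38, Gria2 0.30, Gria3 0.21, Gria4 0.44, Grin1 0.64 and Grin2b 0.15, and in SAPAP3 KO Gria1 became 0.24, Gria2 0.14, Gria3 0.065, Gria4 0.34 and Grin1 0.47. For neuron over astrocyte IP Grin3a became 0.43, for the inputs Gria1 became 1.66 and Grin1 1.65, and for the interaction Gria1 became -0.044, Gria3 -0.22, Gria4 -0.67, Grin1 -0.071 and Grin2b -0.15. These follow the shift of all genes given in the report, and none but Gria3 in bulk, at 0.00 under TMM, turned once it was subtracted. Library totals, with a shift of -0.17 to -0.22 for IP over input, turned Gria4 (-0.20) and Grin2d (-0.095) in the neuron cohort, and the FPKM filter turned Gria4 there (-0.19) and in the interaction (-0.060), all uncalled. With each library left out, Grin2d in KO over WT inputs ranged from -0.0068 (without KO input replicate 2) to 0.273. Without bulk WT replicates 2 and 3, Gria3, Grin2d and Grin3a were each -0.15. The cause of the moves other than the shift was not tested.

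With 4 libraries a group, the confidence intervals in the report limit what is known of each genotype difference.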
